A study of Mus musculus with 30 samples.

Results

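The genes described here are 10 markers of the fields of the hippocampus. Prox1, C1ql2, Dsp, Tdo2 and Calb1 mark granule cells of the dentate gyrus, Fibcd1, Spink8 and Wfs1 mark pyramidal cells of CA1, Zbtb20 marks neurons of both CA and dentate, and Neurod6 marks CA pyramidal cells. They were taken by name, with earlier results of these data known, and are 10 of the 36717 genes and transcripts on the array, of which 21368 had a symbol. RNA was measured on Agilent mouse arrays with a single dye, 1 array for the hippocampus and 1 for the brain without hippocampus of each of 15 mice (30 arrays). The tissues were matched to a mouse by the number that their labels share. The mice were 15 to 20 months old per the labels, and each sample was 1 mouse with no pooling. WT (C57BL/6j) gave 3 females. 3xTgAD, which carries human APP and tau transgenes driven by the neuronal Thy1 promoter, gave 2 females and 3 males. JHT, which has no functional B cells because its immunoglobulin heavy chain J locus is deleted, gave 2 females. The cross of both, labelled JHT_3xTgAD and here called 3xTgAD-BKO, gave 2 females and 3 males. All groups have the strain label C57BL/6j, and the methods call the 3xTgAD mice congenic. The first comparison asked how the markers differed between hippocampus and the rest of the brain, and the others asked whether they differed between genotypes within the hippocampus.

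The hippocampus is a chain of fields, in which granule cells of the dentate gyrus project to CA3 and CA3 projects to CA1. Each field has its own transcription factors and surface or secreted proteins, which are used to recognize its cells in sections and in single-cell data. PROX1 is the homeobox factor that gives granule cells their identity, and ZBTB20 is a zinc finger repressor needed for the formation of the hippocampus. NEUROD6 is a basic helix-loop-helix factor of pyramidal neurons. Several of these genes are also used outside the hippocampus, and calbindin, the calcium buffer encoded by Calb1, is abundant in Purkinje cells of the cerebellum, in the striatum and in interneurons.

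Of the 10 genes, 8 had an entry among RefSeq promoter sequences of build GRCm38.p6. The 250 bases upstream of the start are printed for 4 genes with large differences between the tissues, to show that these genes do not share 1 kind of promoter. Each sequence runs 5′ to 3′ on the strand of its gene, and capitals mark the dinucleotide CG. Dsp lies on the plus strand (chr13:38151044-38151293), Fibcd1 on the minus strand (chr2:31846006-31846255), C1ql2 on the plus strand (chr1:120340332-120340581) and Neurod6 on the minus strand (chr6:55681264-55681513).
Dsp: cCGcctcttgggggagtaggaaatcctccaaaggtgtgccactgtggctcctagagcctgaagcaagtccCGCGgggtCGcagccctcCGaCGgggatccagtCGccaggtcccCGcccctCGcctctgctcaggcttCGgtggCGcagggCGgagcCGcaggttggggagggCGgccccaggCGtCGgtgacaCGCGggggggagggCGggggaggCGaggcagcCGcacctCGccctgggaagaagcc
Fibcd1: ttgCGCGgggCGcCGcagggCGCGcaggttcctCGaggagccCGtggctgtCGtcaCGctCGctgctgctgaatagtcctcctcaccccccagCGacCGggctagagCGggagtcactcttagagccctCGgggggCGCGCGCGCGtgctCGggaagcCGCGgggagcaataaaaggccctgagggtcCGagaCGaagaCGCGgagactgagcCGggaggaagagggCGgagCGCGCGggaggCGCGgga
C1ql2: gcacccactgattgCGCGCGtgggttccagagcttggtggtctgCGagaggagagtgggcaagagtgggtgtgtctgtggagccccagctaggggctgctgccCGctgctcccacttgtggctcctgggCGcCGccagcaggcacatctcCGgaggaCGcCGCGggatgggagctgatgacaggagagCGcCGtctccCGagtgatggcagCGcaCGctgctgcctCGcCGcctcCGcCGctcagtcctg
Neurod6: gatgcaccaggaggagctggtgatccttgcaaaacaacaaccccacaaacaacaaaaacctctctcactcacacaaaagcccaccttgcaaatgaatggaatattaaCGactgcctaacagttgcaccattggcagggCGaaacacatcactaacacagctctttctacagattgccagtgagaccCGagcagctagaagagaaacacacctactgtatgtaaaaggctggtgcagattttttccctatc
The windows of Dsp, Fibcd1 and C1ql2 held 22, 34 and 20 CG dinucleotides at a GC content of 72.4%, 71.6% and 68.8%, whereas that of Neurod6 held 3 at 46%. Over 32851 promoters of the same length the median was 6 CG at 52.4% GC, and 35.6% held 11 or more. The windows not printed were of both kinds. Wfs1 held 23 CG and the first of the Prox1 entries 20, while Zbtb20 and Tdo2 held 3 each. The letters CAGATG, the E-box bound by factors of the NeuroD family, stood on either strand of 2 of the 9 member windows (Prox1 and Wfs1) and of 14.4% of all promoters. These counts describe letters, and no binding was measured.

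The scanner files hold intensities corrected within each array, with a 75th percentile of 454 to 824 for hippocampi and of 841 to 1636 for brains. A log2 signal below is the log2 of this intensity after quantile normalization over the 30 arrays, and differences of log2 signals are called changes. Levels of different genes come from different probes and are not compared with each other. All 10 genes were well above background on all 30 arrays, except Dsp on 2 brain arrays and Tdo2 on 1 hippocampal array. Thy1, whose promoter drives the transgenes, lay between 17.95 and 18.28 on the 10 hippocampal arrays labelled with the transgenes and between 16.85 and 17.06 on the 5 others. The hippocampal array of 3xTgAD-BKO male replicate 0 stood apart, with 432 spots marked as outliers by the scanner software against 104 to 150 on the other hippocampal arrays. The main results that rest on it are given with and without it.

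Between hippocampus and brain, 7 of the 10 genes were higher in the hippocampus, 1 was lower, and 2 did not pass the test (limma, adjusted p over all 36717 genes, threshold 0.05). Of all genes tested, 51.1% passed, with 25.1% of all genes higher and 26% lower in the hippocampus, so that passing alone was common. The median change over the 10 genes was 2.56, against -0.004 over all genes, and 4 of the 10 ranked within the first 10 of 21368 genes with a symbol by their change. The tissues did not overlap for 8 of the 10, against 8.51% of all genes (3.83% higher and 4.68% lower). In bulk tissue, fewer cells of a type and less RNA per cell cannot be told apart.

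The dentate markers came first. Prox1 had a log2 signal of 8.34 to 9.30 (median 9.02) over the 15 hippocampi and of 6.20 to 7.18 (median 6.68) over the 15 brains. C1ql2, which encodes a secreted C1q-like protein of mossy fiber synapses, spanned 9.05 to 10.86 (median 10.15) in the hippocampus and 5.91 to 6.86 (median 6.46) in the brain. Dsp, which encodes desmoplakin of the desmosome, spanned 9.21 to 10.94 (median 10.42) in the hippocampus and 4.56 to 6.50 (median 5.35) in the brain. For all 3 genes the lowest hippocampus lay above the highest brain. The change of Dsp was 4.89 (29.7-fold, standard error 0.16, limma adjusted p = 8.82e-16), rank 2 of all genes with a symbol. That of C1ql2 was 3.59 (12.1-fold, standard error 0.13, adjusted p = 3.84e-15), rank 10, and that of Prox1 was 2.33 (5.04-fold, standard error 0.09, adjusted p = 9.45e-15), rank 53. The difference between the tissues of a mouse ran from 3.86 to 5.98 for Dsp and from 1.80 to 2.97 for Prox1. Every mouse had more of each in its hippocampus (15 of 15).

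The other dentate markers did not behave like these. Calb1 spanned 8.28 to 9.32 (median 8.49) in the hippocampus and 9.43 to 10.46 (median 10.001) in the brain. All 15 hippocampi lay below all 15 brains. Calb1 was 2.73-fold lower in the hippocampus (change -1.45, standard error 0.09, adjusted p = 4.53e-11), and the difference within a mouse ran from -2.16 to -0.58. The smallest differences were those of 3xTgAD-BKO males, among which replicates 8 and 9 had the highest hippocampal Calb1 of all mice, at 9.32 and 8.92. Tdo2, which encodes tryptophan 2,3-dioxygenase, spanned 4.38 to 6.71 (median 6.31) in the hippocampus and 5.22 to 6.75 (median 5.79) in the brain. The tissues overlapped. Its change of 0.35 (95% interval -0.03 to 0.73) did not pass the test (adjusted p = 0.119), although 13 of 15 mice had more Tdo2 in the hippocampus. With the mouse as a block the same change had a standard error of 0.10 and passed (adjusted p = 0.00891), and without the hippocampal array of 3xTgAD-BKO male replicate 0 it was 0.47 (adjusted p = 0.00248).

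The CA1 markers fell into 2 kinds. Fibcd1, a transmembrane receptor that binds acetylated sugars, spanned 9.96 to 10.89 (median 10.50) in the hippocampus and 5.41 to 6.80 (median 6.30) in the brain. Spink8, a Kazal-type serine protease inhibitor, spanned 12.22 to 14.18 (median 13.38) in the hippocampus and 8.60 to 9.70 (median 9.13) in the brain. The tissues did not overlap for either gene. Fibcd1 had a change of 4.29 (19.5-fold, standard error 0.11, adjusted p = 1.86e-17) and Spink8 a change of 4.25 (19.1-fold, standard error 0.14, adjusted p = 1.88e-15), ranks 5 and 6. Wfs1, which encodes wolframin of the endoplasmic reticulum, spanned 11.34 to 14.23 (median 13.80) in the hippocampus and only 13.51 to 13.88 (median 13.68) in the brain. Its hippocampal values lay on both sides of the brain range, with 8 of 15 mice higher in the hippocampus. The change was -0.12 (95% interval -0.51 to 0.26, adjusted p = 0.609), and 0.001 without the hippocampal array of replicate 0 (adjusted p = 0.995). The spread within groups was 0.72 (SD) for Wfs1 in the hippocampus and 0.07 in the brain, against a median of 0.28 and 0.21 over all genes. Without that array the hippocampal spread of Wfs1 was 0.39, against 0.24 over all genes.

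The transcription factors shared by the fields were both higher in the hippocampus. Zbtb20 spanned 12.77 to 14.15 (median 13.43) there and 10.90 to 11.85 (median 11.45) in the brain. Neurod6 spanned 12.37 to 13.15 (median 12.80) in the hippocampus and 9.73 to 10.24 (median 10.03) in the brain. Neither overlapped between the tissues. The change of Neurod6 was 2.79 (6.92-fold, standard error 0.06, adjusted p = 5.76e-18), rank 26, and that of Zbtb20 was 2.01 (4.03-fold, standard error 0.09, adjusted p = 3.4e-13), rank 91. Neurod6 had the lowest spread of the 10 genes within groups of hippocampi (SD 0.19), and its difference within a mouse ran only from 2.36 to 3.22.

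**Figure D1:**
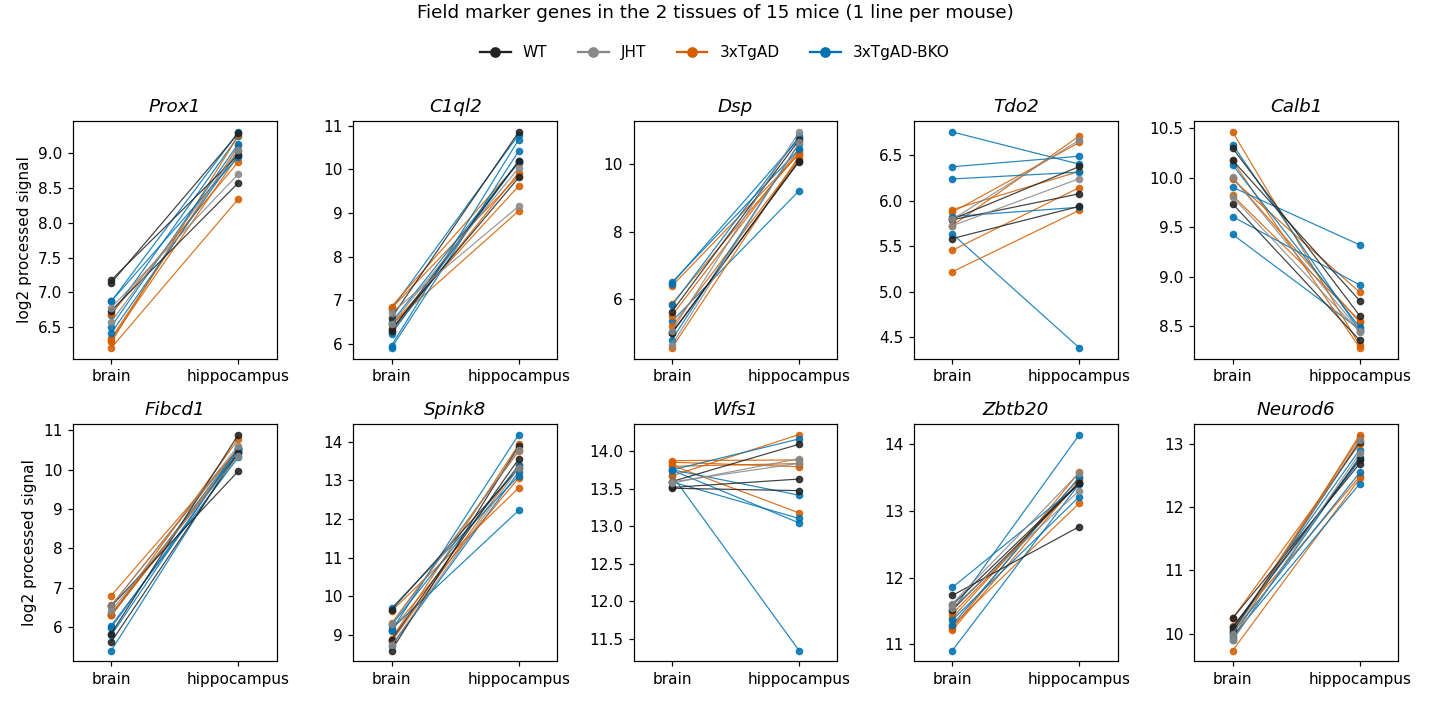
Log2 processed signal (y axis) of each of the 10 genes in the brain without hippocampus and the hippocampus (x axis), with 1 line for each of the 15 mice, coloured by genotype. All 15 lines go up for 7 genes and down for Calb1, and Tdo2 and Wfs1 show both, with the lowest hippocampal value of each, 4.38 and 11.34, in the same 3xTgAD-BKO mouse.

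Hippocampal and brain arrays lay mostly on different slides, so tissue and slide can be compared only in part. One slide held both, with 1 brain of a 3xTgAD-BKO male beside 7 hippocampi, of which 2 were of the same genotype and sex. Against that single brain, the 7 hippocampi were higher on average by 5.203 for Dsp and by 4.17 for Fibcd1, and differed by -0.73 for Calb1 and by 0.05 for Wfs1, the 1 gene of the 10 on the other side of 0 than over all mice. For the 2 of the same genotype and sex alone, Calb1 differed by -0.31 and Wfs1 by -0.08. The scaling matters for the small changes. Scaling each array to its 75th percentile moved the median of all genes to 0.28, and normalizing each tissue on its own moved it to -0.77. Relative to that median Tdo2 differed by 0.31 under both, although its raw change was -0.46 in the latter (adjusted p = 0.0238), and Wfs1 differed by -0.37 and -0.35. The raw change of Wfs1 was -1.12 with each tissue normalized on its own, and it passed (adjusted p = 1.29e-05). Of all calls, 49.1% were higher in the hippocampus in the main processing, 69.5% with the 75th percentile and 3.2% with normalization within tissues. The 7 higher genes and Calb1 kept their direction and passed under every alternative tried.

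**Figure D2:**
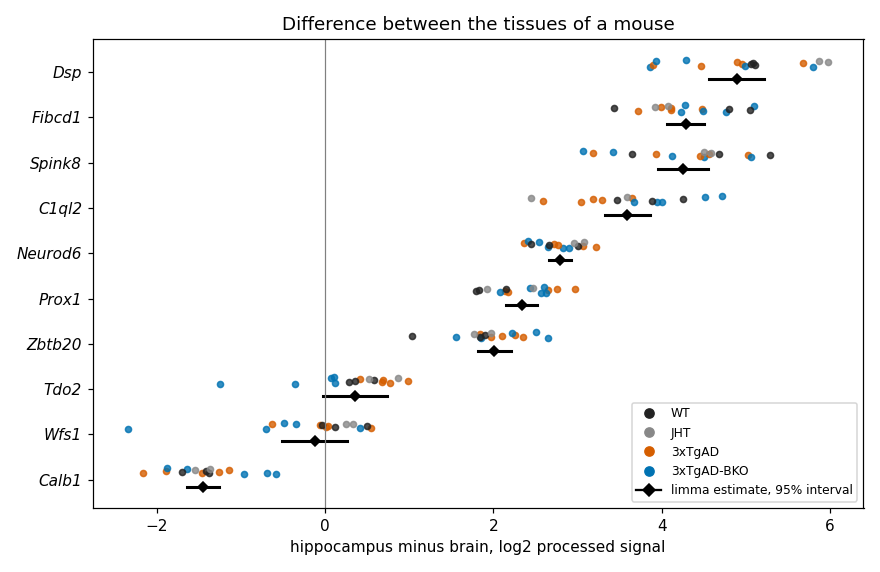
Hippocampus minus brain difference in log2 processed signal (x axis) for each gene (y axis), with 1 point for each of the 15 mice coloured by genotype and, below the points, the limma estimate with its 95% interval. Dsp, Fibcd1 and Spink8 differ by over 4 on this scale, the intervals of Tdo2 and Wfs1 include 0, and Calb1 lies at -1.45. With each tissue normalized on its own the estimate of Tdo2 turns to -0.46.

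Lists of further markers give the setting of these genes, and they too were drawn up with earlier results known. Of 9 further dentate markers, 8 were higher and 1 was lower in the hippocampus, with a median change of 0.95. Lct, the gene of lactase, had a 28.9-fold difference (12.05 to 13.12 in the hippocampus, 7.20 to 8.41 in the brain), and the cation channel gene Trpc6 differed 2.72-fold. All 4 further CA1 markers were higher, with a smaller median of 0.72, led by the POU-domain factor gene Pou3f1 (2.60-fold), Man1a (1.75-fold) and Mpped1 (1.56-fold). With each tissue normalized on its own, 3 of the 9 dentate and 1 of the 4 CA1 genes remained higher, and Mpped1 turned to -0.34 before the shift of all genes is taken off. Of 6 CA2 markers, 4 were higher, among them Rgs14 (3.04-fold) and Map3k15 (2.01-fold), and 2 were lower, among them Pcp4, a calmodulin regulator also made by Purkinje and striatal cells (3.62-fold lower). Of 5 CA3 markers, 3 were higher, among them the kainate receptor gene Grik4 (2.97-fold) and the adhesion gene Nectin3 (2.54-fold), 1 did not pass, and Coch was 7.86-fold lower. Of 6 genes of adult dentate neurogenesis, 2 were higher and 3 were lower, among them Neurod1 (4.23-fold), which other regions of the brain also use. Draxin, among the higher, was well above background on 7 of 15 hippocampal and 3 of 15 brain arrays, and Eomes, among the lower, on 7 hippocampal arrays, so no fold is given for them. With each tissue normalized on its own, the CA2 list had 1 higher and 3 lower and the neurogenesis list 0 higher and 4 lower, and neither Draxin nor Map3k15 passed. These counts, like those of the dentate and CA1 lists, are before the shift of all genes is taken off.

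Markers of the rest of the brain checked the dissection. All 7 striatal markers were lower in the hippocampus, among them the adenosine receptor gene Adora2a (10.1-fold) and the dopamine receptor gene Drd1 (6.17-fold). Of 6 cerebellar markers, 5 were lower, and Gabra6 and Cbln3 of granule cells were not well above background on any hippocampal array, which puts them at least 310-fold and at least 45-fold lower. Pcp2 of Purkinje cells was 149-fold lower. Of 6 neocortical markers, 5 were lower, among them Rspo1 (5.77-fold) and Cux2 (3.78-fold), while Fezf2 was 3.30-fold higher. Of 4 thalamic markers, 3 were lower, with Slc17a6 at 9.34-fold, Prkcd at 2.38-fold and Lef1 at 1.61-fold. The other, Tcf7l2, was 1.24-fold higher (change 0.31). With each tissue normalized on its own it was at -0.61, before the shift of all genes (median -0.77) is taken off. Of 6 choroid plexus markers, 4 were lower and 2 did not pass, with Ttr at 5.96-fold, Otx2 at 3.61-fold and Kcnj13 at 3.43-fold. The choroid plexus list was the one that varied most among hippocampi, with a mean log2 signal over its 6 genes of 7.44 to 14.06, high in 3xTgAD male replicate 4 (14.06), JHT replicates 13 and 14 (14.06 and 13.08) and 3xTgAD-BKO female replicate 7 (13.96), and at most 10.07 in the other 11 mice.

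Within the hippocampus, none of the 10 genes passed the test in any comparison of genotypes (0 of 10 in each, limma over the 15 hippocampal arrays). Few genes passed at all: 0.37% between 3xTgAD-BKO and 3xTgAD females, 0.847% between males, 1.02% with both sexes, 0.746% between 3xTgAD and WT females, 0.0926% between JHT and WT females and 0.229% between 3xTgAD-BKO and JHT females. These counts depended on single mice, and leaving out 1 mouse moved them from 136 to between 230 and 663 in females and from 311 to between 128 and 1480 in males, with the highest count of each without 3xTgAD-BKO replicate 6 and 9. On simulated data of the females' comparison, 27 of 100 genes changed by 1 and 58 of 100 changed by 2 were recovered, so a change of 1 was often not detectable with these numbers of mice. The simulated spread was pooled over both tissues, while the median spread over all genes was 0.28 in hippocampi and 0.21 in brains. Comparisons that use the same group share its mice and are not independent of each other.

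C1ql2 was the member that did not overlap between 3xTgAD-BKO and 3xTgAD with both sexes in the comparison. Its hippocampal log2 signal was 9.86 and 9.05 in 3xTgAD females, 10.15, 9.62 and 9.93 in 3xTgAD males, 10.42 and 10.68 in 3xTgAD-BKO females and 10.80, 10.17 and 10.19 in 3xTgAD-BKO males. It was 10.20, 9.81 and 10.86 in WT and 9.16 and 10.04 in JHT females. All 5 3xTgAD-BKO hippocampi lay above all 5 3xTgAD hippocampi, though by only 10.171 against 10.149 where they were closest, which was so in either direction for 2.29% of all genes, while WT lay across both and JHT lay below all 3xTgAD-BKO values. With both sexes the change was 0.79 (1.73-fold, standard error 0.26, 95% interval 0.21 to 1.38), with an unadjusted limma p of 0.0129 and an adjusted p of 0.269. Of all genes, 10.5% had an unadjusted p under 0.05 in this comparison, against 1 of the 10 members. In females the change was 1.10 (standard error 0.41, adjusted p = 0.233) and in males 0.49 (standard error 0.34, adjusted p = 0.462). The adjusted p of the change with both sexes ranged from 0.0551 to 0.674 over 19 alternatives, in all of which C1ql2 was higher in 3xTgAD-BKO, by 0.59 to 0.998. Without 3xTgAD-BKO male replicate 0, whose array stood apart, it was 0.69 (adjusted p = 0.384). 

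The brain without hippocampus did not show the same order. C1ql2 there was 6.82, 6.46, 6.86, 6.44 and 6.29 in 3xTgAD mice and 5.91, 5.97, 6.80, 6.50 and 6.24 in 3xTgAD-BKO mice, so that the genotypes overlapped. The difference between the tissues of a mouse was 2.59 to 3.64 (mean 3.15) in 3xTgAD, 3.67 to 4.72 (mean 4.17) in 3xTgAD-BKO, 3.46 to 4.25 in WT and 2.44 to 3.58 in JHT mice. The genotype change differed between hippocampus and brain by 1.15 (standard error 0.31, unadjusted p = 0.00141, limma adjusted p = 0.313). Of all genes, 0.0899% passed this test and 6.03% had an unadjusted p under 0.05, against 0 and 1 of the 10 genes. Against WT females, C1ql2 in 3xTgAD females differed by -0.83 (adjusted p = 0.415) and in JHT females by -0.69 (adjusted p = 0.704). The 3xTgAD and WT females lay on different slides, and with the slide as a block the former was -1.45, while without 3xTgAD replicate 2 it was -0.43. Against JHT females it differed in 3xTgAD-BKO females by 0.95 (adjusted p = 0.507).

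**Figure D3:**
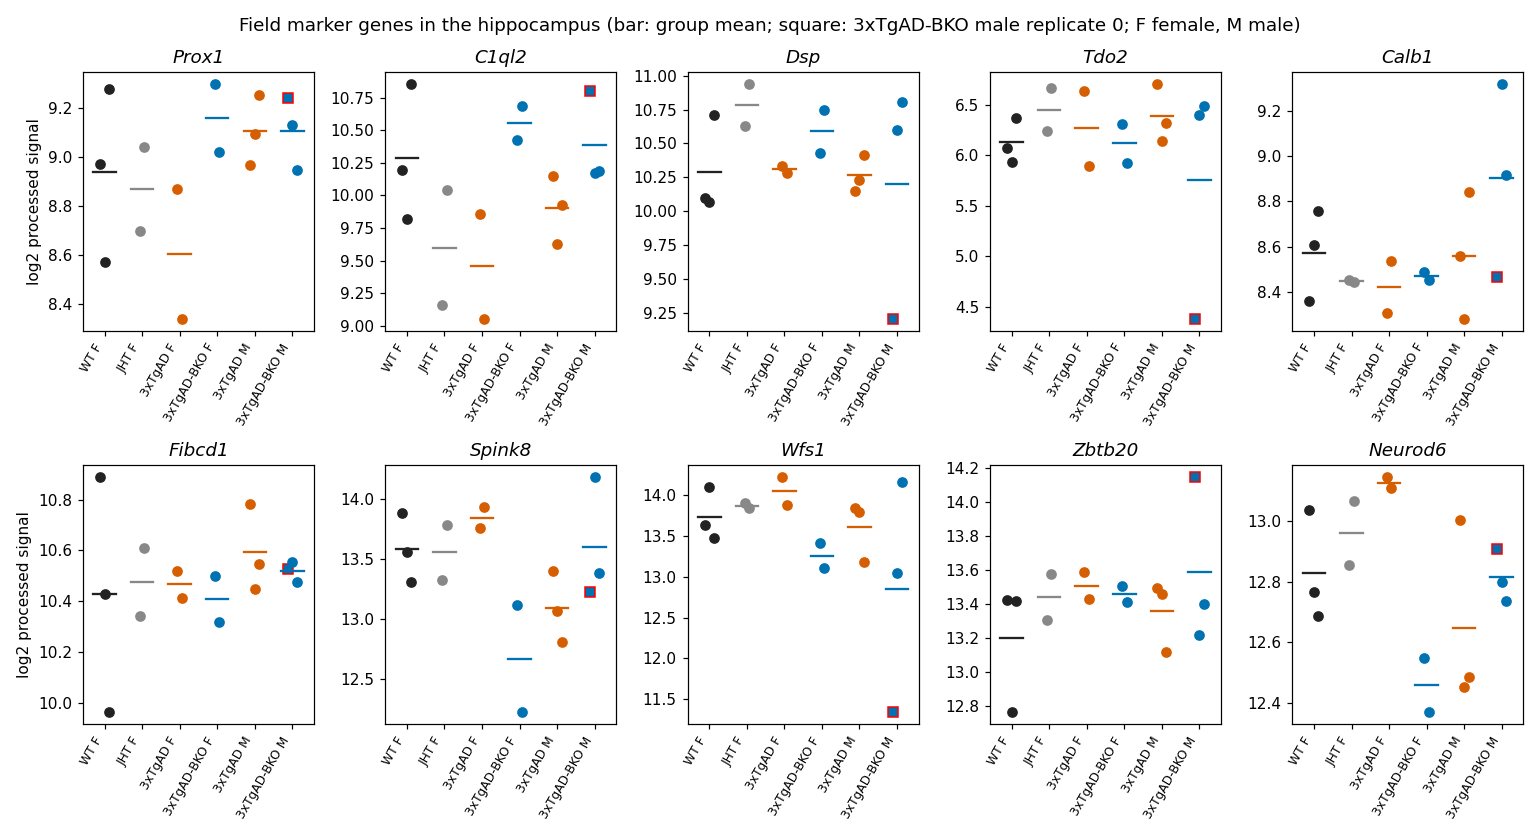
Hippocampal log2 processed signal (y axis) of each gene in the 6 groups of genotype and sex (x axis), with 1 point for each mouse, a bar at the group mean and a square for 3xTgAD-BKO male replicate 0. C1ql2 is at 10.17 or above in all 5 3xTgAD-BKO mice and at 10.15 or below in all 5 3xTgAD mice, and the square lies far below its group for Dsp, Tdo2 and Wfs1 and above it for Zbtb20.

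In females, 4 of the 10 genes had an unadjusted p under 0.05 between 3xTgAD-BKO and 3xTgAD, against 16.4% of all genes. Besides C1ql2 these were Prox1, Spink8 and Neurod6. Spink8 was 13.11 and 12.22 in 3xTgAD-BKO and 13.75 and 13.93 in 3xTgAD females, a change of -1.17 (standard error 0.37, adjusted p = 0.189). Neurod6 was 12.55 and 12.37 against 13.15 and 13.11, a change of -0.67 (standard error 0.19, adjusted p = 0.152), and Prox1 was 9.30 and 9.02 against 8.87 and 8.34, a change of 0.56 (standard error 0.25, adjusted p = 0.297). With all 30 arrays in one limma fit Neurod6 passed (adjusted p = 0.0441), and the count over all genes rose as well. Leaving out 3xTgAD replicate 2 or 1 moved Prox1 to 0.29 or 0.82 and C1ql2 to 0.69 or 1.501. The genotypes did not overlap for 6 of the 10 genes, against 56.7% of all genes. The median change was 0.28 over the 5 dentate and -0.80 over the 3 CA1 members, and 0.21 over the 9 further dentate and -0.51 over the 4 further CA1 markers, against -0.02 over all genes. It was 0.29 over the 6 CA2, -0.28 over the 5 CA3, 0.46 over the 6 neurogenesis and -0.27 over the 6 neocortical markers. None of the markers in these lists passed, and the differences between these lists were not tested. In males the medians in the same order were 0.001 and -0.07 over the members, 0.22 and 0.23 over the further dentate and CA1 markers, and -0.11, 0.14, 0.06 and 0.18, against 0.01 over all genes.

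**Figure D4:**
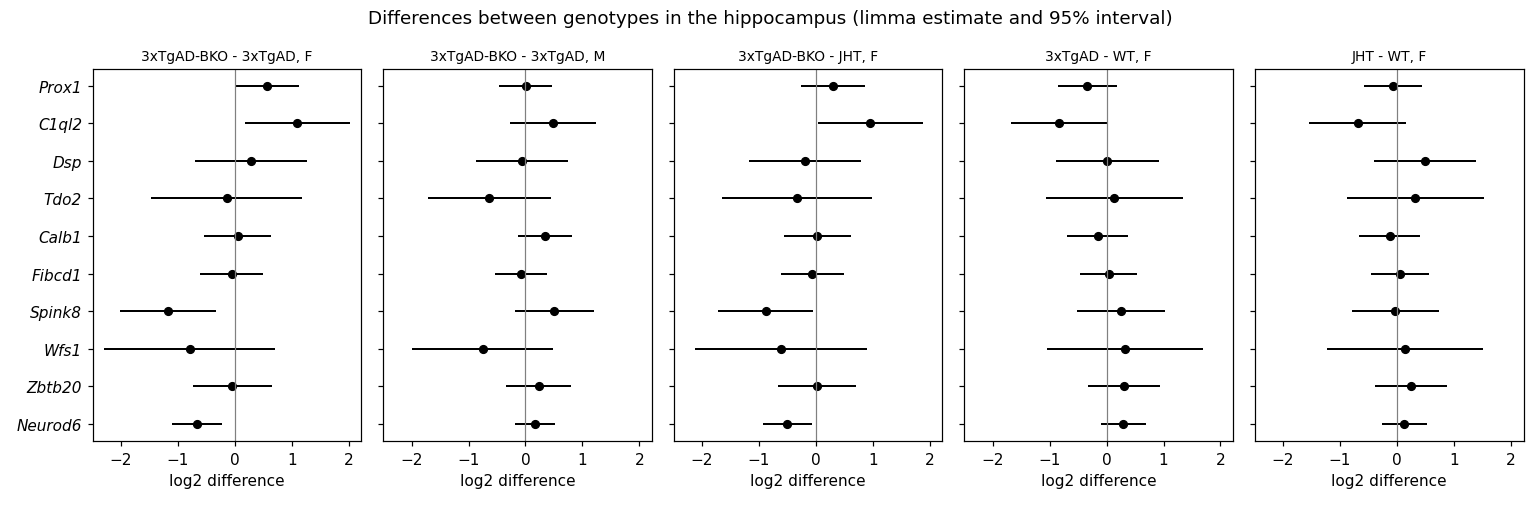
Change in log2 processed signal (x axis) between genotypes in the hippocampus for each gene (y axis), as the limma estimate with its 95% interval, in 5 comparisons named above the panels (F females, M males). The intervals of C1ql2, Prox1, Spink8 and Neurod6 in the first panel exclude 0 and none has an adjusted p under 0.152, while in males every interval includes 0.

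The choroid plexus list was at a mean of 9.10 and 13.96 in the 3xTgAD-BKO females and of 10.07 and 10.06 in the 3xTgAD females, with all 6 of its genes measured. Replicate 7, at 13.96, also had the lowest Spink8 and the lowest Neurod6 of all 15 hippocampi. Of the other 3 hippocampi with a high choroid plexus signal, 3xTgAD male replicate 4, at 14.06, had the second lowest Neurod6 of all (12.45) and Spink8 at 13.06. The JHT females, at 14.06 and 13.08, had Spink8 at 13.33 and 13.78 and Neurod6 at 12.86 and 13.06. The part of choroid plexus in the females' changes was not tested. Without replicate 7 the change of Spink8 was -0.73 (adjusted p = 0.787) and without 3xTgAD-BKO replicate 6 it was -1.62 (adjusted p = 0.0796).

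In males the changes of Spink8 and Neurod6 had the other sign. Spink8 was 13.22, 14.18 and 13.38 in 3xTgAD-BKO and 13.40, 13.06 and 12.81 in 3xTgAD males, and Neurod6 was 12.91, 12.80 and 12.74 against 13.003, 12.45 and 12.49. The genotypes overlapped for both genes, and the changes were 0.51 (adjusted p = 0.409) and 0.17 (adjusted p = 0.577). The former was 0.694 without 3xTgAD-BKO replicate 0 and 0.213 without replicate 8, which had the highest Spink8 of all hippocampi, and on the slide that held both genotypes replicate 0 was at 13.22 against a mean of 13.09. The difference between the sexes itself was -1.68 for Spink8 (standard error 0.48, adjusted p = 0.0906) and -0.83 for Neurod6 (standard error 0.24, adjusted p = 0.0925), and neither passed. Without the array of 3xTgAD-BKO male replicate 0 the values were -1.87 (adjusted p = 0.0768) and -0.79 (adjusted p = 0.107). Of all genes, 0.0245% passed this test and 21.2% had an unadjusted p under 0.05, against 0 and 2 of the 10. With all 30 arrays in one fit, both passed (adjusted p = 0.0432 and 0.0308), as did 3025 of all 36717 genes, against 9 in the fit of the hippocampal arrays. In males as a whole, the 10 changes ran from -0.75 to 0.51, none with an unadjusted p under 0.05 against 18.2% of all genes, and only C1ql2 did not overlap, against 20.4% of all genes.

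Without the slide as a block, no gene passed in the remaining comparisons of females. Between 3xTgAD and WT, 1 of 10 genes (C1ql2) had an unadjusted p under 0.05, against 12% of all genes, and 2 did not overlap, against 37.6%. The other 9 changes ran from -0.34 to 0.32. These groups lay on different slides, and with the slide as a block Dsp, Tdo2 and Wfs1 passed at 1.51 to 2.59, as did 3260 of all genes against 274 without the block, which is the block that rests on the 3xTgAD-BKO males. Between JHT and WT no gene had an unadjusted p under 0.05, against 7.83%, none was without overlap, against 29.8%, and the changes ran from -0.69 (C1ql2) to 0.49 (Dsp). Between 3xTgAD-BKO and JHT, C1ql2, Spink8 (-0.89) and Neurod6 (-0.50) had an unadjusted p under 0.05, 3 of 10 against 9.78%, and 4 did not overlap, against 46.4%. The choroid plexus list had a median change of 5.305 between JHT and WT and of -2.12 between 3xTgAD-BKO and JHT. Its part in these changes was not tested. With the slide as a block Spink8 was at -0.32 (adjusted p = 0.846), C1ql2 at 0.33 (adjusted p = 0.86) and Neurod6 at -0.64 (adjusted p = 0.287) in this last comparison, whose groups lay on different slides. The block turned Tdo2 from -0.33 to 1.73, which passed, as did 2924 of all genes against 84 without it. The intervals were wide, and that of Wfs1 between JHT and WT ran from -1.22 to 1.495.

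On the hippocampal array of 3xTgAD-BKO male replicate 0, 4 of the 10 genes were at an end of the range. Wfs1 was 11.34 there and 13.05 to 14.23 on the other 14 arrays, Tdo2 was 4.38 against 5.89 to 6.71, and Dsp was 9.21 against 10.07 to 10.94. Zbtb20 was 14.15 there, the highest, against 12.77 to 13.59. The spots around each probe were then examined, a check chosen after these values were seen. Over the array, 5.28% of bright spots lay more than 2-fold below the mean of the other arrays, against 0.148% to 0.899% elsewhere. Of the 36 bright spots within 5 rows and columns of the Wfs1 spot, 58.3% were more than 2-fold low, with a median of -1.43, against a median of -0.19 to 0.51 on the other arrays, and the scanner software had not marked the Wfs1 spot. Around Tdo2 3.33% of 30 spots were low and the median was 0.27, and around Zbtb20 the median of 18 spots was -0.02. Dsp has 10 spots on the array, of which 2 were marked as outliers and left out, and the other 8 had deviations of -1.20 to -0.85 while at most 3.23% of their neighbours were low. The low value of Wfs1 thus stood among low neighbours, and those of Dsp and Tdo2 did not.

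**Figure D5:**
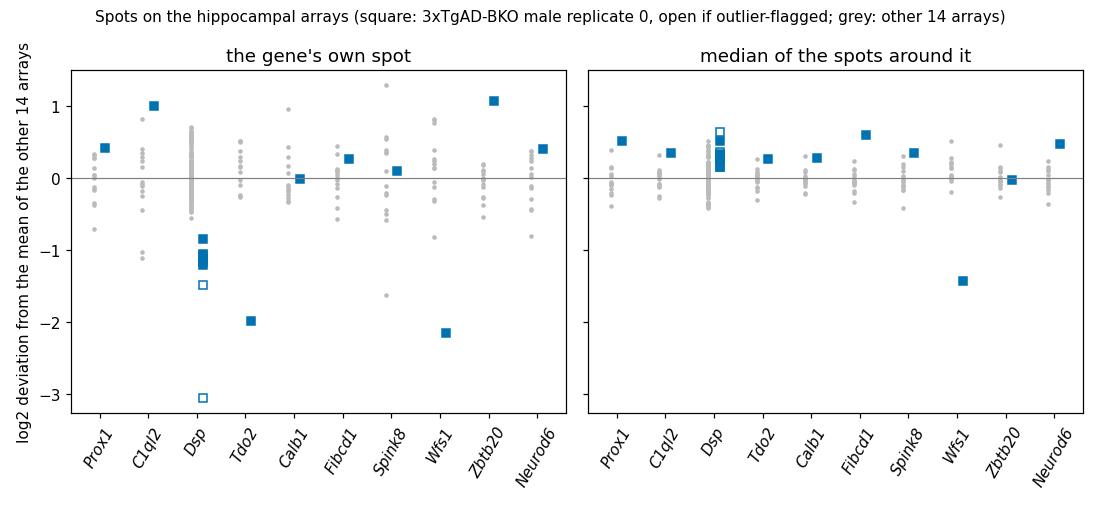
Log2 deviation from the mean of the other 14 hippocampal arrays (y axis) for each gene (x axis), at the gene's own spot on the left and as the median of the bright spots around it on the right, with squares for 3xTgAD-BKO male replicate 0 (open if the spot was marked as an outlier) and grey points for the other arrays. Wfs1 is low in both panels (-2.15 and -1.43), Tdo2 only on the left (-1.98 against 0.27), and Dsp, with 10 spots, only on the left.

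The changes in males moved with this array. With it, the change between 3xTgAD-BKO and 3xTgAD males was -0.75 for Wfs1, -0.64 for Tdo2, -0.06 for Dsp and 0.23 for Zbtb20. Without it the changes were 0.002, 0.05, 0.44 and -0.05. None passed either way. The slide as a block gave calls for Wfs1, Tdo2 and Dsp in males, where it called 5646 of all 36717 genes against 311 without it, and in the hippocampus this block is estimated from the 3xTgAD-BKO males alone, of which replicate 0 lay on one slide and replicates 8 and 9 on the other. In Tdo2, the tissue difference of a mouse was -1.25 to 0.12 in the 5 3xTgAD-BKO mice and 0.42 to 0.98 in the 5 3xTgAD mice, and the genotype change differed between the tissues by -0.91 (adjusted p = 0.841).

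Across the 15 hippocampal arrays, after each group's mean was taken off, Fibcd1 and Neurod6 (Pearson r = 0.76) and C1ql2 and Prox1 (0.76) were the pairs with the highest correlation, and without the array of 3xTgAD-BKO male replicate 0 they were at 0.78 and 0.75. The correlations of Dsp and Wfs1 depended on that array. With it Dsp was at 0.69 with Wfs1, 0.69 with Calb1, -0.04 with C1ql2 and 0.06 with Prox1. Without it the same values were -0.28, 0.28, 0.70 and 0.54. Wfs1 went from 0.31 to -0.69 with Calb1, the lowest pair without the array, and from -0.59 to 0.07 with Zbtb20. Calb1 and Zbtb20 were the lowest pair with the array (-0.71) and were at -0.44 without it. Tdo2, not well above background on all arrays, was not among the pairs. All points share the arrays, and these are descriptions. The genes whose deviations were most like those of Dsp, among 13957 genes well above background on all 15 arrays, were Nacc1 (0.97), Pgf (0.97) and Hspa2 (0.97), at 0.89, 0.86 and 0.84 without the array. Those most like Fibcd1 were 1700028J19Rik (0.92), Prkcb (0.90) and H4c8 (0.89), at 0.92, 0.94 and 0.90 without it.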

How the data were processed

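RNA of 15 hippocampi and 15 brains without hippocampus was measured with a single dye, Cy3, on Agilent mouse arrays, and the authors deposited the output of Agilent Feature Extraction for each array. The deposited processed signal is an intensity corrected for background within the array by that software, on a linear scale. The authors also deposited processed values in a matrix, here a score without stated unit, which was found to be the log10 signal centred and scaled within each array and was used as an alternative. Array annotation came with the files, and 28331 of 55681 probes had a symbol through RefSeq accessions. Of 62976 spots, 3671 were controls and were dropped, together with spots marked as outliers, and no spot was saturated. Log2 intensities were averaged per probe and quantile-normalized over 30 arrays, and each gene was given by its brightest probe on average, after the methods. Each member had 1 probe except Dsp, whose second probe was not above background on any array.

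Groups came from the labels. Differences were tested with limma 3.58.1 in R 4.3.3, with Benjamini-Hochberg adjustment over 36717 genes and a threshold of 0.05. Tissue was tested on all 30 arrays and genotype on the 15 hippocampal arrays. The mice are the replicates, and their number limits the precision. Mouse numbers are shared by the tissues. Deviations of the same mouse number correlated between the tissues at a median of 0.10 over 19491 genes, and at -0.18 to 0.24 over the mice. At most 3 genes of each marker list were named, those with the largest difference between the tissues, besides the 10 members and the 3 genes most like Dsp and Fibcd1. Some of these are not reported here, and Tcf7l2 was named after its values were seen. The members and lists were chosen with earlier results of these data known. The mean over all 7 hippocampi of the shared slide, the check of neighbouring spots (5 rows and columns, mean log2 signal of at least 8) and the fits and correlations without the hippocampal array of replicate 0 were chosen after seeing the data. Alternatives changed the scaling, background correction, filter, probe choice, blocks and mice used. The test was run on simulated data, and for tissue it recovered 87% of genes changed by 1 and 96% of those changed by 2 on the log2 scale.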

Additional observations from a re-analysis of the deposited data

Results flagged for a closer look

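Of 40 groups of 5 samples examined, 3 held a sample farther from the others than Dixon's test allows at 0.71 of the group's range, and chance gives about 1 in 20. In the hippocampus of 3xTgAD-BKO, replicate 0 was lowest for Dsp at 9.21, with the nearest sample at 10.43, and lowest for Tdo2 at 4.38, with the nearest at 5.93. In the brain of 3xTgAD, replicate 1 was highest for Prox1 at 6.70, with the nearest at 6.34. Of 20 differences of the genotype change between sexes or tissues, 0 passed the limma test and 3 had an unadjusted p under 0.05, 2 of 10 between the sexes, against 21.2% of all genes, and 1 of 10 between the tissues, against 6.03%.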

How the results depend on the processing

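Precision was limited by the 2 or 3 mice in each group of genotype and sex. Dsp and Tdo2 were the members not well above background on every array. With the mouse as a block, which pairs the tissues, 9 of the 10 genes passed between hippocampus and brain, Tdo2 being added at 0.35 (adjusted p = 0.00891). The block changed no other call, and the same-mouse correlation was above 0.1 in 8 of 15 mice. No mouse block was possible within the hippocampus.

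Between the tissues, 9 passed with the 75th percentile and 10 with each tissue normalized on its own, where Tdo2 turned to -0.46. Wfs1 turned to 0.036 with the slide as a block, to 0.19 in WT alone and to 0.001 without the hippocampal array of replicate 0. Over all genes the count passing was 18773, and 24897 with the 75th percentile, 11352 with the slide as a block, 9192 in WT alone and 29906 with each tissue normalized on its own. The cause was not tested.

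Within the hippocampus no gene passed, and the slide as a block gave calls for 3 genes in males, 2 with both sexes, 3 between 3xTgAD and WT, 1 between 3xTgAD-BKO and JHT and 2 in the difference between the sexes, each of them Wfs1, Tdo2 or Dsp. Of all 36717 genes it called 5646, 4152, 3260, 2924 and 4906 in these, against 311, 374, 274, 84 and 9 without it. This block rests on the 3xTgAD-BKO males, and Dsp with both sexes turned to -0.391. With all 30 arrays in one fit, 1 gene passed in females (Neurod6, with 883 of all genes) and 2 in the difference between the sexes (with 3025). The methods' t-test at an unadjusted threshold called 1 gene in females (Neurod6) and 1 with both sexes (C1ql2), and none after adjustment, with 4890 and 2483 of all genes at the unadjusted threshold. Leaving out 1 mouse gave 0 to 1 gene in the difference between the sexes, the 1 being Spink8 without 3xTgAD-BKO female replicate 6, where 1514 of all genes passed. With 1 mouse left out, the lowest and highest changes in males were -0.365 and 0.436 for Dsp and -1.001 and 0.052 for Tdo2. For Wfs1 they were -1.412 and 0.002, and for Zbtb20 -0.048 and 0.417. With both sexes they were -0.042 and 0.358 for Dsp and -0.049 and 0.183 for Zbtb20. Dsp in males was 0.022 with normexp background correction and 0.077 with the mean of its probes. Over all genes the count passing in females was 136, and 883 with all 30 arrays and 0 with those groups alone, and in males it was 311, 1895 and 16. The cause was not tested.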
